A study of Mus musculus with 8 samples.

Results

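Transcripts of 41 genes of the adult muscle fiber, which encode parts of the sarcomere, the calcium handling machinery and the energy and oxygen supply of contraction, were examined in RNA from sorted mouse muscle stem cells. They were taken by symbol from a named list, and all 41 were found among the 25237 genes of the table. The treated cells came from male mice given ketone bodies (ketones libraries 1 to 4), and the control cells came from male mice given phosphate-buffered saline (PBS libraries 1 to 4). All mice were 2 to 4 months old, and cells were sorted from hindlimb muscle as VCAM1+/CD31-/CD45-/Sca1-. No dose, route or duration of the treatment was stated in the labels used here. The strain entry reads C57BL/6 in every PBS library, against C57BL/7, C57BL/8, C57BL/9 and C57BL/9 in ketones libraries 1 to 4. If these entries name strains, strain and treatment cannot be told apart. Whether the libraries come from separate animals is not stated in the labels, so p-values describe the variation among these 8 libraries, some of which may be technical.

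Muscle stem cells lie beside the muscle fiber under its basal lamina, are marked by the transcription factor Pax7, and do not build sarcomeres while quiescent. In a fiber, an action potential opens the calcium channel of the transverse tubule, which is coupled to the ryanodine receptor of the sarcoplasmic reticulum. Released calcium binds troponin C on the thin filament and lets myosin heads pull on actin, and the calcium pump then returns calcium to the reticulum. Fast and slow fibers carry different isoforms of most of these proteins, so the genes were divided into 14 fast, 7 slow and 20 common ones. In RNA from a sorted population, fewer cells that carry a transcript and less of it per cell cannot be told apart.

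The myofiber list did not move as a unit. Of the 14 fast-fiber genes 9 were higher in the ketones libraries, while Actn3 and Pygm, abundant in PBS libraries, and the slow troponin T transcript Tnnt1 were lower. Of the 41 genes, 38 passed the filter of a mean of at least 10 normalized counts over the 8 libraries, and Myl2, Tnnc1 and Trdn did not. The groups did not overlap in 15 genes that were higher and 3 that were lower in ketones libraries, against 14.2% higher and 14.1% lower (28.3% together) of all genes in the test. With limma across all tested genes and a threshold of 0.05 on the Benjamini-Hochberg adjusted p, 17 rose, 3 fell and 18 did not pass. Among all 14022 genes tested, 12.8% were called higher and 12.8% lower, so rises were more frequent among the members than among all genes and falls were not. The median log2 change was 1.46 over the 41 genes and -0.01 over all tested genes. Among the 38 are Myl3, Myot, Smpx and Cacna1s, whose PBS mean was under 10, so they passed the filter only through the ketones libraries.

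Ketones library 1 stood apart for these genes. The 41 transcripts summed to 53647, 13569, 15809 and 13650 normalized counts in ketones libraries 1 to 4, against 24061, 18087, 21352 and 23268 in PBS libraries 1 to 4. The sum was thus highest in ketones library 1 and lower in each of ketones libraries 2 to 4 than in any PBS library. Part of the gap below PBS rests on Actn3. The other 40 genes summed to 50457, 12386, 13870 and 12459 in ketones libraries 1 to 4. In PBS libraries 1 to 4 they summed to 15926, 12569, 13665 and 15324. Ketones library 3 then lay above PBS libraries 2 and 3, while ketones libraries 2 and 4 still lay below every PBS library. Pygm and Atp2a1 also lay below every PBS library in ketones libraries 2 to 4. Ketones library 1 held the highest value of all 8 libraries in 32 of the 41 genes, against 18.5% of all tested genes. The ratio of ketones library 1 to the median of ketones libraries 2 to 4 had a median of 4.83 over the members, against 0.997 over all tested genes. Without that library, 15 of the 17 genes still passed as higher and all 3 as lower, Mybpc2 and Ldb3 no longer passed, and Atp2a1 passed as lower. The background without it was 14.0% higher and 15.3% lower of 13904 genes. All 17 rises were smaller without it, with a median log2 change of 1.68 against 2.47 with it, and all 3 falls were larger.

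**Figure D1:**
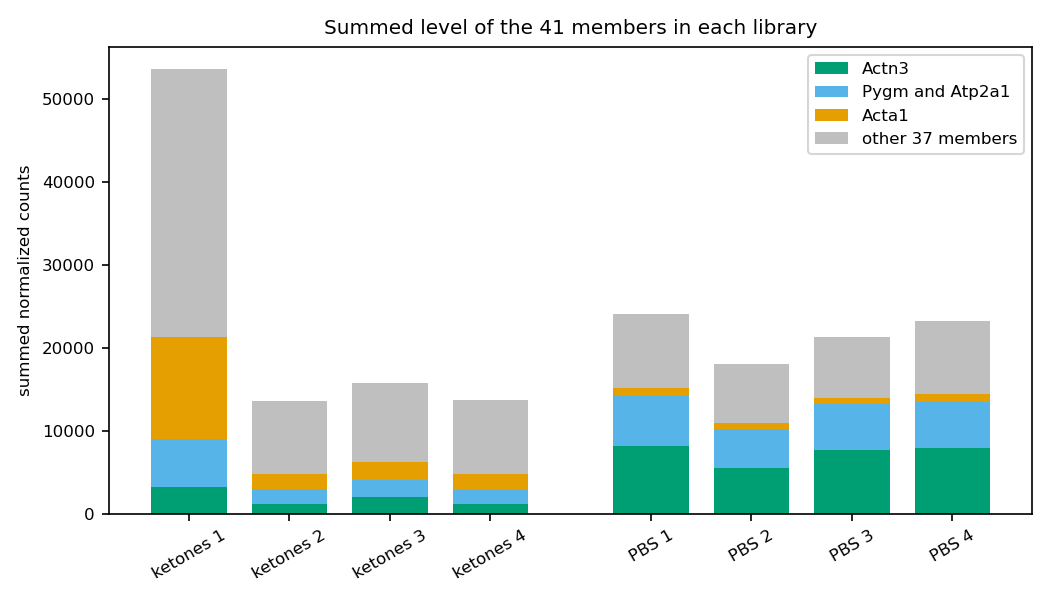
Summed normalized counts of the 41 genes in each library, with ketones libraries on the left and PBS libraries on the right. Blocks stand for Actn3, for Pygm with Atp2a1, for Acta1 and for all other genes of the list. Ketones library 1 reaches 53647, ketones libraries 2 to 4 lie between 13569 and 15809, and PBS libraries lie between 18087 and 24061. The largest single gene is Acta1 in ketones library 1 and Actn3 in each PBS library.

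Depth ran from 25465671 to 36870537 reads in the ketones libraries and from 19174005 to 29689632 in the PBS libraries, and 1 read was worth 0.638 to 1.39 normalized counts. The stem cell label was checked against 10 markers, of which 1 rose and 5 fell, and their summed level was 200792, 252978, 277025 and 299831 normalized counts in ketones libraries 1 to 4 and 290590 to 317383 in PBS libraries. The largest part of each sum was Sdc4, which averaged 165225 in ketones libraries and 153223 in PBS libraries and did not pass (adjusted p = 0.777). Of all tested genes, 12.8% were called in each direction. Pax7 averaged 1792 ± 215 normalized counts in ketones libraries and 2125 ± 301 in PBS libraries (SD, n = 4 per group here and below), with an adjusted p of 0.265. Myf5, an early myogenic factor, averaged 6625 ± 1565 in ketones libraries and 8512 ± 832 in PBS libraries (adjusted p = 0.119). Vcam1, the marker used for sorting, fell by 0.85 on the log2 scale (adjusted p = 0.0206). The other falls, named after their values were seen, were larger. Cdh15, the adhesion molecule M-cadherin, averaged 6282 ± 1957 in ketones libraries and 20038 ± 688 in PBS libraries, and Itga7, an integrin subunit, averaged 4815 ± 923 in ketones libraries and 14024 ± 1217 in PBS libraries (log2 changes -1.72 and -1.56, adjusted p = 2.7e-05 and 2.01e-05). Chrdl2 and the calcitonin receptor gene Calcr fell by 1.11 and 0.92 on the log2 scale (adjusted p = 0.000166 and 0.00634). Transcripts of the markers sorted against were present. Pecam1, which encodes CD31, averaged 4233 ± 1506 in ketones libraries and 733 ± 118 in PBS libraries, and Ly6a, which encodes Sca1, averaged 4907 ± 1742 in ketones libraries and 535 ± 29.7 in PBS libraries.

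Other cell type markers moved with the groups or with ketones library 1. Their counts stand against 12.8% of all tested genes called in each direction. All 12 endothelial markers rose, and their summed level was 30432 to 73356 normalized counts in ketones libraries and 8185 to 10500 in PBS libraries. Ketones library 1 was not the highest there, at 58363. The 8 blood and immune markers summed to 8945, 1030, 2482 and 4962 in ketones libraries 1 to 4 and to 794 to 988 in PBS libraries, and 5 of the 8 rose. Ptprc, which encodes CD45, read 299 in ketones library 1, 21.1 to 30.1 in ketones libraries 2 to 4 and 16.1 to 28.4 in PBS libraries (adjusted p = 0.217). Of 10 smooth muscle and pericyte markers 6 rose and 2 fell, with sums of 23607 to 36288 in ketones libraries and 36204 to 39370 in PBS libraries. Most of the PBS sums was Notch3, which fell from 24045 ± 1284 in PBS libraries to 7596 ± 1414 in ketones libraries. Of 8 Schwann cell markers 5 rose and 1 fell, with sums of 23848 to 30471 in ketones libraries and 24526 to 25698 in PBS libraries. Most of these sums was Pmp22, which did not pass, and Ncam1, which fell. Of 8 fibro-adipogenic markers 3 rose and 2 fell, with sums of 23900 to 46898 in ketones libraries and 45656 to 71171 in PBS libraries. Most of the PBS sums was Col3a1, which fell from 45498 ± 8238 in PBS libraries to 4701 ± 3098 in ketones libraries, while Ly6a, Dcn and Smoc2 rose. A sum can thus move apart from most of its markers. The part of any of these cell types in the myofiber values was not tested.

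Promoters of Mylpf, Ckm, Tnnt1 and Pygm are shown because these genes stand for both directions, the first pair higher and the second pair lower in ketones libraries. Each is the 250 bases before the RefSeq start on GRCm38.p6, read 5′ to 3′ on the gene's strand, with capitals on every E-box (CANNTG), the letters bound by myogenic factors such as MyoD.
Mylpf (chr7:127211358-127211607, plus strand): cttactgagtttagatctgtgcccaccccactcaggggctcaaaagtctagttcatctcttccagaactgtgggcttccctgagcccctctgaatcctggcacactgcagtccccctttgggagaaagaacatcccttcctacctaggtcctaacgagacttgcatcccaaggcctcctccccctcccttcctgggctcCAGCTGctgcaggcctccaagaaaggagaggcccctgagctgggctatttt
Ckm (chr7:19410844-19411093, plus strand): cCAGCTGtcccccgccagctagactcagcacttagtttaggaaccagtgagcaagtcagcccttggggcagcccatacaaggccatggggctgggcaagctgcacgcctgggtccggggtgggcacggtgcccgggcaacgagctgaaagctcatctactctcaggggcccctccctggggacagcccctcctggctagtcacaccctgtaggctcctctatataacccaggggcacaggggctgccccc
Tnnt1 (chr7:4515976-4516225, minus strand): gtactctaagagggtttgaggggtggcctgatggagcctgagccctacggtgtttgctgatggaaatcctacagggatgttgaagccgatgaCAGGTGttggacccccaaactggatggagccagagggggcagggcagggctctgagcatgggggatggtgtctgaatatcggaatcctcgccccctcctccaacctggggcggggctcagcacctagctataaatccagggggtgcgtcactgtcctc
Pygm (chr19:6384158-6384407, plus strand): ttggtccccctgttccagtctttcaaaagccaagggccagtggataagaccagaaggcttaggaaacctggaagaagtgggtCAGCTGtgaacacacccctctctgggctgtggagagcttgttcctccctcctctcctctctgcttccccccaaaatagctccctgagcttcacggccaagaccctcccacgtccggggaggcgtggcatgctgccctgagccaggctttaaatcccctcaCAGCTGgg

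The E-box letters CAGCTG stand in the Mylpf, Ckm and Pygm windows, and CAGGTG stands in the Tnnt1 window, so genes that rose and genes that fell both carry an E-box there. RefSeq windows were found for 32 of the 41 genes, 39 windows in all. On either strand, an E-box stood in 82.1% of these windows, against 66.2% of 32536 promoter windows of the same length. A loose form of the MEF2 letters, CTA and TAG with any 4 bases between, stood in 7.69% of these windows, against 3.22% of all. That share rests on 3 windows, of Ldb3, Smpx and Ttn. Only in the Ttn window were the 4 bases between all A or T. TATAAA stood in 15.4%, against 12.3%. By gene, 27 of the 32 held an E-box in at least 1 window. The shares describe letters and not occupied sites.

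Among thick filament genes, the rises that passed were in fast isoforms, Myh4, Mylpf, Myl1 and Mybpc2. Of 10, 4 rose, 0 fell, 5 did not pass and Myl2 was not tested, and the median log2 change was 1.69. The share called over all tested genes was 12.8% in each direction. Myh4 (chr11:67238029-67260446, plus strand, mm10), the IIB myosin heavy chain of the fastest mouse fibers, read 770.1, 251, 243 and 170.5 normalized counts in ketones libraries 1 to 4, against 71.7, 34.7, 34.9 and 20.9 in PBS libraries 1 to 4. Every ketones library lay above every PBS library, with ketones library 1 the highest. The log2 change of Myh4 was 2.99 ± 0.46 (SE; adjusted p = 0.000362), and 2.54 (adjusted p = 0.000634) without ketones library 1.

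The other heavy chains did not pass. Myh2, the IIA chain, read 85.5, 42.9, 47.8 and 24.1 in ketones libraries, against 17.9, 23.1, 14.4 and 20.9 in PBS libraries. Its groups did not overlap, but the gap between 24.1 and 23.1 was narrow and the change of 1.23 ± 0.47 had an adjusted p of 0.0694. Myh1, the IIX chain, read 357, 47.2, 50.8 and 49.1 in ketones libraries, against 99.5, 69.3, 28.7 and 109.9 in PBS libraries. Only ketones library 1 lay above the PBS range, and the change of 0.24 ± 0.61 (adjusted p = 0.806) turned to -0.47 without that library. Myh7, the slow heavy chain, read 19.1, 0, 1.99 and 10.03 in ketones libraries, against 31.4, 12.6, 0 and 30.6 in PBS libraries, and the groups overlapped (adjusted p = 0.56). Of the 50-base stretches of these 4 transcripts, 18.9% (Myh4) to 26.9% (Myh2) are shared with other genes, so reads may be split between heavy chains.

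Both fast myosin light chains rose. Mylpf, the fast regulatory light chain, read 1389.6, 125, 122 and 96.3 in ketones libraries, against 67.2, 22.1, 38.0 and 47.3 in PBS libraries. Myl1, the fast essential light chain, read 944, 98.7, 191 and 91.2 in ketones libraries, against 37.6, 47.3, 54.4 and 41.7 in PBS libraries. In both genes ketones library 1 was far above the other ketones libraries, and the groups did not overlap. Log2 changes were 2.37 ± 0.68 for Mylpf (adjusted p = 0.0208) and 2.14 ± 0.57 for Myl1 (adjusted p = 0.0147), and 1.47 and 1.40 without ketones library 1 (adjusted p = 0.0145 and 0.0101). The Mylpf call was lost on leaving out PBS library 2 (adjusted p = 0.0732) or 3 (0.0513). Of the 50-base stretches of Myl1, 23.4% are shared with other genes, a pseudogene among them. The slow partners were near the floor. Myl2 read 33.2, 0, 0 and 9.02 in ketones libraries and 5.38, 1.05, 5.13 and 1.39 in PBS libraries, and Myl3 read 68.9, 0, 14.9 and 9.02 in ketones libraries, against 5.25 in PBS library 2 and 0 in the other PBS libraries. Myl3 changed by 2.70 ± 1.40, more than Mylpf and Myl1 but without passing (adjusted p = 0.176).

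Myosin binding protein C, which ties myosin to the thick filament and tunes its activity, has a fast and a slow form in the list. Mybpc2, the fast form, read 309, 30.1, 72.7 and 59.2 in ketones libraries, against 30.5, 12.6, 29.8 and 4.17 in PBS libraries. The groups met at ketones library 2 and PBS library 1, and the change was 2.32 ± 0.71 (adjusted p = 0.0283). That call was lost without ketones library 1 (log2 change 1.68, adjusted p = 0.0796), and also when PBS library 2 (0.0732) or 4 (0.0863) was left out. Mybpc1, the slow form and the most abundant thick filament transcript per kb of exon in PBS libraries, averaged 1609 ± 433 in ketones libraries and 1804 ± 404 in PBS libraries, with overlapping groups (adjusted p = 0.575).

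**Figure D2:**
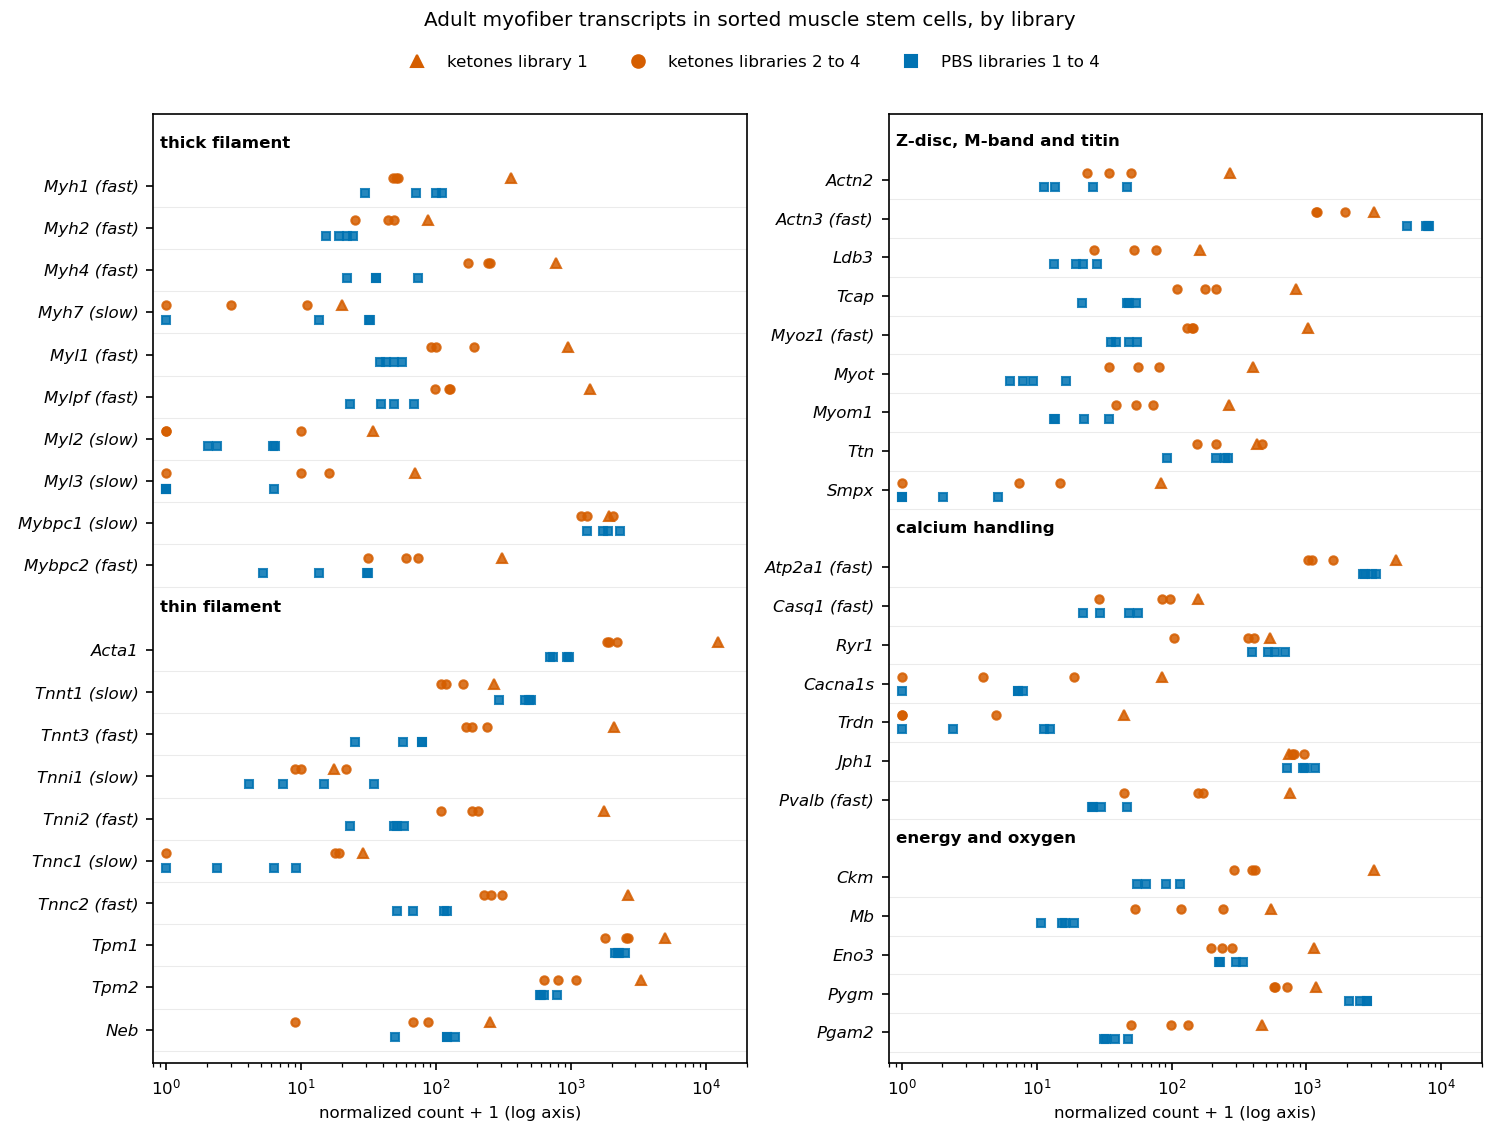
Normalized count + 1 (log axis) of every one of the 41 genes in each library, by role, with ketones libraries as orange triangles (library 1) and circles (libraries 2 to 4) above the PBS libraries as blue squares. The triangle is the rightmost point in 32 of the 41 genes, and Actn3, Pygm and Tnnt1 are the genes whose PBS points all lie to the right.

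Of 10 thin filament genes, 4 rose, 1 fell, 4 did not pass and Tnnc1 was not tested, with a median log2 change of 1.19. The share called over all tested genes was 12.8% in each direction. Acta1, skeletal muscle alpha-actin, was the most abundant member per kb of exon in ketones libraries and read 12355, 1832, 2177 and 1924 in ketones libraries 1 to 4, against 958, 691, 737 and 938 in PBS libraries 1 to 4. All ketones values exceeded all PBS values, with ketones library 1 far above the rest. The log2 change of Acta1 was 1.92 ± 0.46 (adjusted p = 0.00807) with all libraries and 1.26 (adjusted p = 0.000156) without ketones library 1.

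The 3 subunits of fast troponin rose together. Tnnt3 (chr7:142498836-142516009, plus strand), the fast troponin T that anchors the complex to tropomyosin, read 2063, 182, 236 and 165 in ketones libraries, against 77.9, 24.2, 77.0 and 55.7 in PBS libraries. Tnni2, the fast inhibitory subunit, read 1753, 185, 202 and 107 in ketones libraries, against 47.5, 22.1, 56.4 and 50.1 in PBS libraries. Tnnc2, the fast calcium-binding subunit, read 2662, 254, 307 and 226 in ketones libraries, against 118, 50.4, 113 and 66.8 in PBS libraries. In all 3 genes the groups did not overlap and ketones library 1 was the highest. Log2 changes were 2.68 ± 0.66, 2.77 ± 0.66 and 2.49 ± 0.62 for Tnnt3, Tnni2 and Tnnc2 (adjusted p = 0.009, 0.00758 and 0.00969). Without ketones library 1 they were 1.83, 1.91 and 1.65 (adjusted p = 0.00498, 0.00345 and 0.00265). Of the Tnnc2 exon bases, 74.0% are overlapped on the other strand by Ube2c, and whether counting used strand is not stated in the sources. Ube2c went the other way, at 7.12 ± 11.5 in ketones libraries and 38.1 ± 16.6 in PBS libraries (adjusted p = 0.0217).

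Slow troponin T moved against its fast partner. Tnnt1 (chr7:4504570-4516382, minus strand) read 267, 156, 116 and 107 in ketones libraries, against 458, 292, 488 and 499.5 in PBS libraries. All ketones values lay below all PBS values, with the closest approach between ketones library 1 and PBS library 2. The log2 change was -1.49 ± 0.29 (adjusted p = 0.00218), and -1.76 (adjusted p = 0.000292) without ketones library 1. The other slow subunits were low. Tnni1 read 16.6, 20.4, 8.96 and 8.02 in ketones libraries, against 6.27, 13.7, 3.08 and 33.4 in PBS libraries, with PBS library 4 highest (adjusted p = 0.807). Tnnc1, also the cardiac form, read 27.4, 0, 16.9 and 18.05 in ketones libraries, against 8.06, 5.25, 0 and 1.39 in PBS libraries.

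The tropomyosins, which cover the myosin sites on actin, and nebulin, which runs along the thin filament, did not pass. Tpm1 averaged 2992 ± 1372 in ketones libraries and 2273 ± 163 in PBS libraries (adjusted p = 0.389). Tpm2 averaged 1451 ± 1243 in ketones libraries and 650.3 ± 89.2 in PBS libraries, with 3295 in ketones library 1 (adjusted p = 0.122). Neb read 249, 85.9, 66.7 and 8.02 in ketones libraries, against 118, 119, 48.2 and 136 in PBS libraries (adjusted p = 0.515).

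For troponin T the balance of the pair changed side. On levels per kb of exon, Tnnt3 made up 91.5%, 62.0%, 73.8% and 68.2% of Tnnt3 plus Tnnt1 in ketones libraries 1 to 4, against 19.2%, 10.3%, 17.99% and 13.4% in PBS libraries 1 to 4. The fast form was thus the larger share in every ketones library and the smaller in every PBS library. These shares rest on 272 to 3653 reads of the pair in ketones libraries and 301 to 598 in PBS libraries. In the other pairs the same isoform led in all libraries, except that Myh4 and Myh7 were near equal in PBS library 4. Tnni2 held 95.6 to 99.6% of troponin I in ketones libraries and 78.3 to 97.8% in PBS libraries. Tnnc2 held 94.2 to 100% of troponin C in ketones libraries and 92.6 to 100% in PBS libraries. Mybpc2 held 3.11 to 16.9% of its pair with Mybpc1 in ketones libraries and 0.227 to 2.11% in PBS libraries, so the slow form led in all 8. Myh4 held 96.1 to 100% of its pair with Myh7 in ketones libraries and 49.4 to 100% in PBS libraries, where the pair had 34 to 115 reads.

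**Figure D3:**
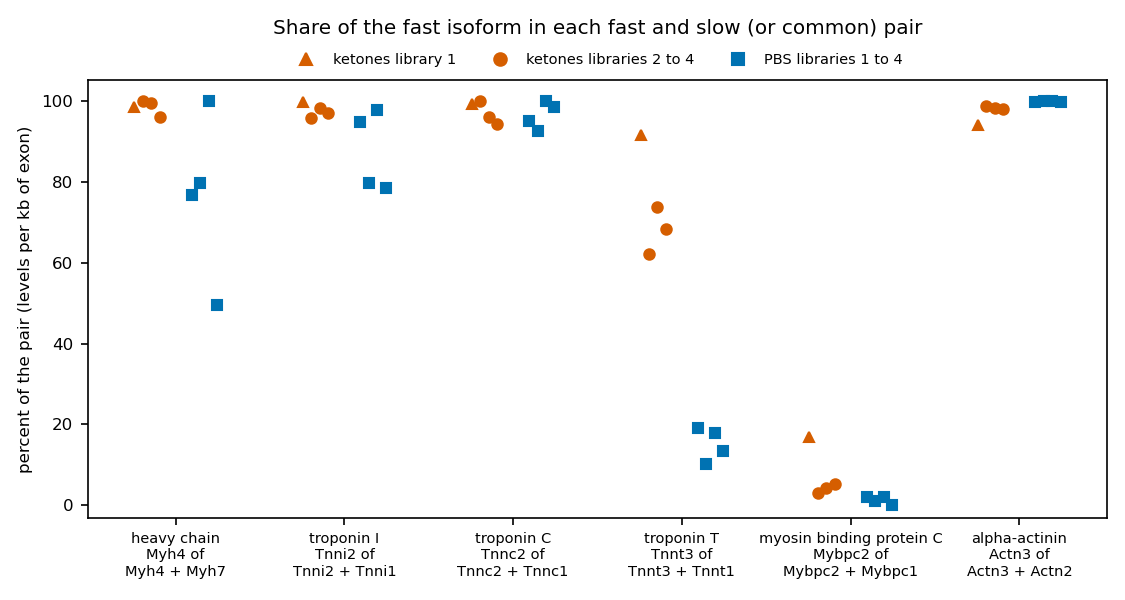
Percent of a pair taken by the first isoform (levels per kb of exon) in each library, for 6 pairs, with ketones libraries in orange to the left of PBS libraries in blue. For troponin T the ketones libraries lie at 62.0% to 91.5% and the PBS libraries at 10.3% to 19.2%, while the other pairs lie on 1 side of the middle except for Myh4 in PBS library 4 (49.4%).

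By fiber class, 9 of the 14 fast genes rose and 1 fell, with a median log2 change of 2.34. Of the 7 slow genes 0 rose, 1 fell, 4 did not pass and 2 were not tested, with a median of 0.21. Of the 20 common genes 8 rose and 1 fell, with a median of 1.22. Over all tested genes, 12.8% were called in each direction. Without ketones library 1 the counts were 8 and 2 for fast genes and 0 and 1 for slow genes, against 14.0% higher and 15.3% lower of all genes. The difference between the classes was not tested.

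**Figure D4:**
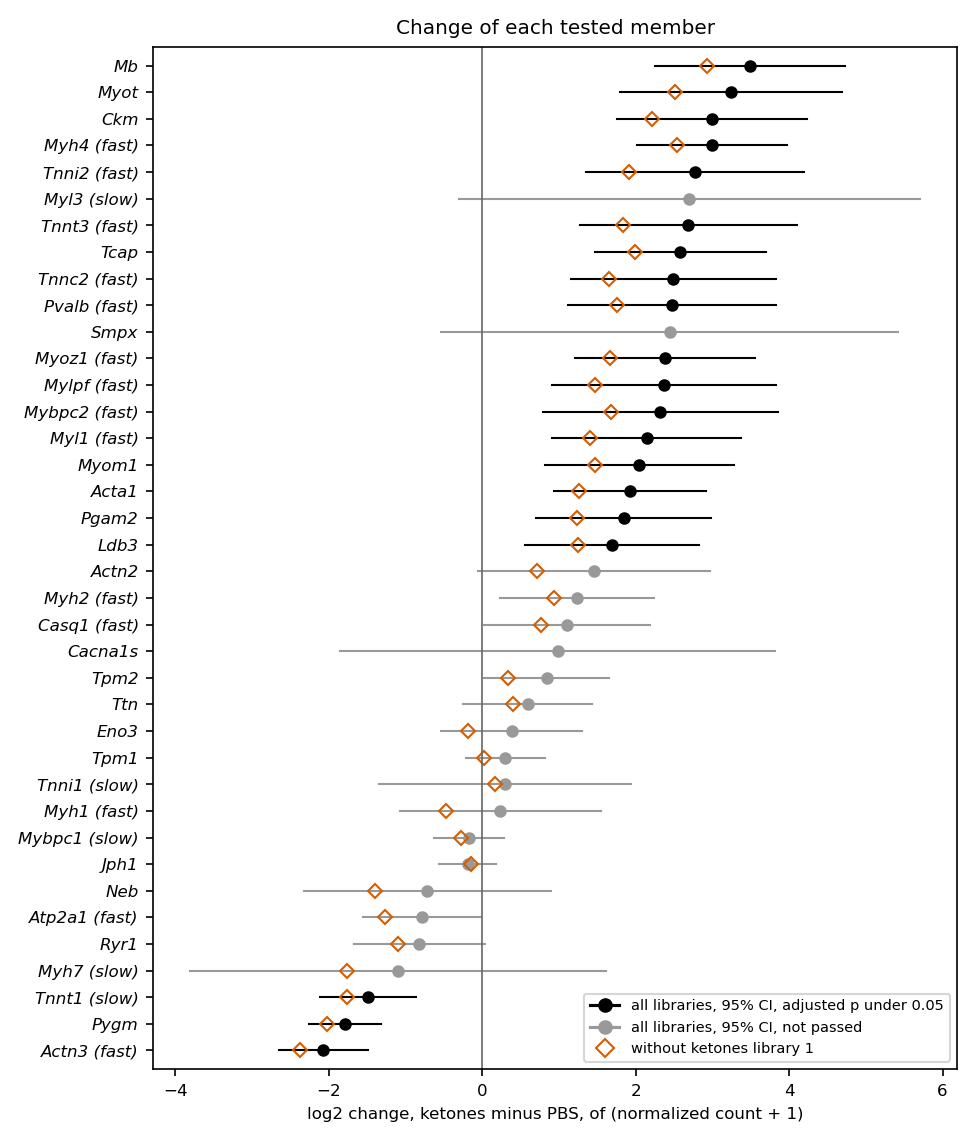
Log2 change, ketones minus PBS, of (normalized count + 1) for the 38 tested genes with its 95% confidence interval, in black where the adjusted p was under 0.05, and the value without ketones library 1 as an open diamond. Mb is at the top with 3.49 and Actn3 at the bottom with -2.07, and the diamonds of all 17 genes that rose lie to the left of their points.

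The Z-disc, M-band and titin group, which holds the filaments in register, had a median log2 change of 2.05. That median includes Myot and Smpx, with PBS means of 9.03 and 1.31, which passed the filter only through the ketones libraries. Of its 9 genes, 5 were higher, 1 was lower and 3 did not pass, against 12.8% of all tested genes called in each direction. Myot, the Z-disc crosslinker myotilin, read 403, 33.3, 55.7 and 79.2 in ketones libraries, against 5.38, 8.40, 15.4 and 6.96 in PBS libraries. Tcap, the titin cap, read 833, 108, 211 and 175 in ketones libraries, against 20.6, 47.3, 53.4 and 45.9 in PBS libraries. Myoz1, a calsarcin of fast fibers that binds calcineurin at the Z-disc, read 1031, 129.9, 141 and 142 in ketones libraries, against 47.5, 37.8, 54.4 and 34.8 in PBS libraries. In each of the 3 genes no ketones library fell as low as the highest PBS library. Log2 changes were 3.24 ± 0.67, 2.58 ± 0.52 and 2.38 ± 0.54 for Myot, Tcap and Myoz1 (adjusted p = 0.00325, 0.00269 and 0.00599), and 2.52, 1.99 and 1.66 without ketones library 1 (adjusted p = 0.0065, 0.00297 and 0.0017).

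Myom1, the M-band protein that links thick filaments, read 267, 71.9, 37.8 and 53.1 in ketones libraries, against 33.1, 12.6, 21.5 and 12.5 in PBS libraries. Ldb3, a PDZ-LIM protein of the Z-disc, read 161, 25.8, 51.8 and 75.2 in ketones libraries, against 26.9, 21.003, 18.5 and 12.5 in PBS libraries. Groups did not overlap for Myom1 and overlapped narrowly for Ldb3. Myom1 rose by 2.05 ± 0.57 (adjusted p = 0.0184; 0.0428 without ketones library 1) but did not pass without PBS library 2 (0.0569) or 4 (0.0545). Ldb3 rose by 1.69 ± 0.53 (adjusted p = 0.0309), and its call was lost without ketones library 1 (0.0835) or 4 (0.0715), or without PBS library 2 (0.0611), 3 (0.0681) or 4 (0.0882).

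Actn3 (chr19:4861216-4877909, minus strand), the alpha-actinin of fast fibers that crosslinks actin at the Z-disc, was the most abundant member in PBS libraries and fell most of the 3. It read 3190.2, 1183, 1939 and 1191 in ketones libraries 1 to 4, against 8134, 5518, 7687 and 7945 in PBS libraries 1 to 4. The groups were far apart, and the highest ketones value, in library 1, was below the lowest PBS value, in library 2. The log2 change was -2.07 ± 0.27 (adjusted p = 0.000105), and -2.37 (adjusted p = 1.34e-05) without ketones library 1. Its common partner Actn2 read 268, 22.5, 48.8 and 33.1 in ketones libraries, against 25.1, 12.6, 10.3 and 45.9 in PBS libraries, and did not pass (adjusted p = 0.145). Titin, Ttn, the spring of the sarcomere, averaged 315 ± 155 in ketones libraries and 203 ± 77.3 in PBS libraries (adjusted p = 0.29). Smpx, a small muscle protein of the costamere, read 82.3, 6.44, 13.9 and 0 in ketones libraries, against 0, 4.20, 1.03 and 0 in PBS libraries, so most of its reads lay in ketones library 1 (adjusted p = 0.216).

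Calcium handling genes had the fewest calls of the groups. Of 7, 1 rose, 0 fell, 5 did not pass and Trdn was not tested, and the median log2 change was -0.16. The share called over all tested genes was 12.8% in each direction. Pvalb, parvalbumin, the calcium buffer of fast fibers, read 755, 169.6, 155 and 43.1 in ketones libraries, against 45.7, 25.2, 24.6 and 29.2 in PBS libraries. Only ketones library 4 fell within the PBS range. The change was 2.47 ± 0.63 (adjusted p = 0.0111), and 1.76 (adjusted p = 0.0184) without ketones library 1.

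Atp2a1 (chr7:126445858-126463108, minus strand), the calcium pump SERCA1 of fast fibers, read 4609.8, 1023, 1559 and 1091 in ketones libraries, against 3276, 2622, 2720.0 and 3037 in PBS libraries. Ketones library 1 was above every PBS library and ketones libraries 2 to 4 were all below. The change of -0.79 ± 0.36 did not pass (adjusted p = 0.125), while without ketones library 1 it was -1.27 (adjusted p = 0.000185). Rabep2, which overlaps 21.9% of its exon bases on the other strand, averaged 369 ± 119.6 in ketones libraries and 361 ± 70.4 in PBS libraries. Ryr1, the calcium release channel, averaged 354 ± 182 in ketones libraries and 545 ± 123 in PBS libraries (log2 change -0.82, adjusted p = 0.148). Casq1, calsequestrin, which stores calcium in the reticulum, averaged 91.0 ± 52.9 in ketones libraries and 38.0 ± 16.1 in PBS libraries (log2 change 1.10, adjusted p = 0.125). Jph1, junctophilin, which holds tubule and reticulum together, averaged 822 ± 96.2 in ketones libraries and 948 ± 179 in PBS libraries (adjusted p = 0.444). Cacna1s, the voltage sensor of the transverse tubule, read 83.6, 0, 17.9 and 3.01 in ketones libraries and 6.27, 6.30, 0 and 6.96 in PBS libraries (adjusted p = 0.622). Trdn, triadin, read 43.4, 0, 3.98 and 0 in ketones libraries, against 11.6, 0, 10.3 and 1.39 in PBS libraries.

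Several calcium handling genes outside the list fell. Of 15, 13 were tested, of which 7 fell and 1 rose, against the background of 12.8% in each direction given above. Ryr3, a ryanodine receptor of immature muscle, fell to 438, 364, 431 and 378 normalized counts in ketones libraries, against 1886, 1527, 1512 and 1322 in PBS libraries. Its groups were far apart and ketones library 1 was close to the others, and the log2 change was -1.95 ± 0.16 (adjusted p = 3.63e-06). Stac3, which is needed for coupling of the voltage sensor to calcium release, read 28.1, 2.15, 19.9 and 9.02 in ketones libraries, against 172, 159, 178 and 203 in PBS libraries (log2 change -3.92 ± 0.57, adjusted p = 0.000269). Jsrp1, a junctional reticulum protein, fell by 1.36 (adjusted p = 0.000142), and Sypl2, mitsugumin 29 of the triad, fell by 2.06 on the log2 scale (adjusted p = 0.00742). Casq2, the calsequestrin of slow and cardiac muscle, was the gene that rose, with 585, 243, 383 and 558 in ketones libraries, against 129.9, 92.4, 124 and 62.6 in PBS libraries (log2 change 2.07 ± 0.31, adjusted p = 0.00035). Without ketones library 1 the counts were 8 lower and 1 higher.

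**Figure D5:**
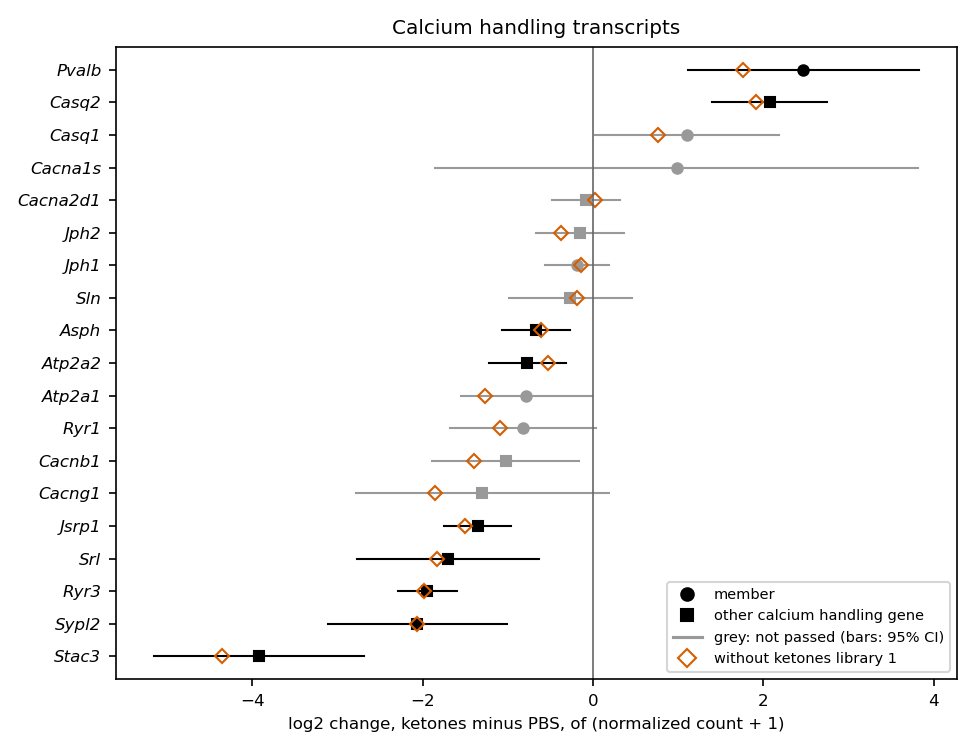
Log2 change, ketones minus PBS, of (normalized count + 1) with its 95% confidence interval for the tested calcium handling genes of the list (circles) and the other calcium handling genes (squares), in grey where the adjusted p was not under 0.05, with the value without ketones library 1 as an open diamond. Pvalb at 2.47 and Casq2 at 2.07 passed on the right, and 7 of the squares, down to Stac3 at -3.92, passed on the left.

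Of the 5 genes of energy and oxygen supply, 3 rose, 1 fell and 1 did not pass, with a median log2 change of 1.84. The share called over all tested genes was 12.8% in each direction. Mb (chr15:77015487-77050670, minus strand), myoglobin, which stores oxygen in oxidative fibers, read 542, 52.6, 239.9 and 116 in ketones libraries, against 9.86, 17.9, 14.4 and 15.3 in PBS libraries. Ckm (chr7:19404776-19422841, plus strand), the muscle creatine kinase that regenerates ATP, read 3184, 415, 394 and 289 in ketones libraries, against 115, 64.1, 90.3 and 54.3 in PBS libraries. Pgam2, the muscle phosphoglycerate mutase of glycolysis, read 470.2, 49.4, 130.4 and 97.3 in ketones libraries, against 46.6, 31.5, 36.9 and 30.6 in PBS libraries. The groups did not overlap in any of the 3, though for Pgam2 ketones library 2 and PBS library 1 were close. Log2 changes were 3.49 ± 0.58, 2.99 ± 0.58 and 1.84 ± 0.53 for Mb, Ckm and Pgam2 (adjusted p = 0.000669, 0.00199 and 0.0212), and 2.93, 2.21 and 1.23 without ketones library 1 (adjusted p = 0.00154, 0.000226 and 0.0358). Pgam2 lost its call without PBS library 2 (0.0592) or 4 (0.0558). Of the Mb exon bases 31.9% are overlapped on the other strand, in part by Apol6, which averaged 12.2 ± 17.7 in ketones libraries and 30.9 ± 19.0 in PBS libraries.

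Pygm (chr19:6384399-6398459, plus strand), the muscle glycogen phosphorylase, read 1185, 713, 575 and 579.6 in ketones libraries 1 to 4, against 2821, 2059, 2829 and 2478 in PBS libraries 1 to 4. The groups were far apart, with ketones library 1 the highest of its group and PBS library 2 the lowest of its own. The log2 change was -1.79 ± 0.22 (adjusted p = 6.14e-05), and -2.03 (adjusted p = 7.93e-06) without ketones library 1. Eno3, the muscle enolase, read 1135, 281, 234 and 197 in ketones libraries, against 297, 223, 228 and 337 in PBS libraries, and its change of 0.38 ± 0.43 (adjusted p = 0.547) turned to -0.19 without ketones library 1.

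The direction went with the level in PBS libraries. At a mean of 200 normalized counts in PBS libraries, a limit chosen after the values were seen, 12 genes lay above it and 29 below. The share called over all tested genes was 12.8% in each direction. Of the 12, 1 rose (Acta1) and 3 fell, with a median log2 change of -0.19. Of the 29, 16 rose and 0 fell, with a median of 2.14, and their sum was 19029, 2503, 3168 and 2186 in ketones libraries 1 to 4, against 1178, 779, 909 and 938 in PBS libraries 1 to 4. Among the 29 are Myl3, Myot, Smpx and Cacna1s, which passed the filter only through the ketones libraries, and of these only Myot was called. Since a level in PBS libraries enters both the split and the change, the split is a description and was not tested.

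Of 30 other sarcomere genes, 26 were tested, 3 rose and 3 fell, a share close to the 12.8% of all tested genes in each direction. Cryab, the small heat shock protein that protects desmin and actin, fell to 4369 ± 1006 in ketones libraries, against 12829 ± 1359 in PBS libraries (adjusted p = 3.38e-05). Mylk2, the skeletal myosin light chain kinase, and Lmod2, which elongates thin filaments, fell by 0.75 and 1.11 on the log2 scale (adjusted p = 0.00772 and 0.00935). Trim63, a sarcomere ubiquitin ligase, Tmod4, a thin filament cap of skeletal muscle, and Xirp1, an actin-binding repeat protein, rose by 3.67, 3.35 and 1.11 on the log2 scale (adjusted p = 0.0117, 0.0121 and 0.0452). Trim63 and Tmod4 are among 9 genes of that list with a PBS mean under 10, at 2.25 and 5.35 normalized counts, which passed the filter only through the ketones libraries. Without ketones library 1, Trim63 and Tmod4 rose by 3.26 and 2.78 on the log2 scale (adjusted p = 0.0407 and 0.0423), and Xirp1 did not pass (log2 change 0.96, adjusted p = 0.0968). Of 15 other muscle energy genes, all tested, 3 rose and 1 fell. Ampd1, the muscle AMP deaminase, Cox6a2, a muscle subunit of cytochrome oxidase, and Fabp3, a fatty acid binding protein, rose by 2.38, 2.998 and 3.08 on the log2 scale (adjusted p = 0.0118, 0.0167 and 0.0272), while Pfkm, muscle phosphofructokinase, fell by 0.84 on the log2 scale (adjusted p = 0.0308). All 3 that rose had a PBS mean under 10, at 4.79, 5.14 and 3.55 normalized counts for Ampd1, Cox6a2 and Fabp3, so they too passed the filter only through the ketones libraries. Without ketones library 1 the log2 changes were 2.32 for Ampd1 (adjusted p = 0.0241), 2.07 for Cox6a2 (0.0419) and 2.90 for Fabp3, which then did not pass (0.0629).

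Of 10 markers of differentiating myoblasts, 4 fell in ketones libraries, 2 did not pass, 4 were not tested and 0 rose, where 12.8% of all tested genes were called lower. Their summed level, most of it Myod1, was 14180, 28754, 18852 and 22438 normalized counts in ketones libraries 1 to 4 and 31911 to 43004 in PBS libraries. Myod1, the myogenic determination factor, averaged 20496 ± 6362 in ketones libraries and 35149 ± 4803 in PBS libraries (adjusted p = 0.0135). Myog, myogenin, which drives terminal differentiation, read 221, 93.4, 135 and 0 in ketones libraries, against 904, 1046, 358 and 1496 in PBS libraries. All ketones values were below all PBS values, and the log2 change was -4.36 ± 1.24 (adjusted p = 0.0199).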

How the data were processed

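The authors deposited a normalized signal per gene, read counts divided by 1 factor per library. Per the submitters' processing notes, Trim Galore, STAR, featureCounts, Subread and DESeq2 were used with mm10, with no versions given. Per the labels' protocols, cDNA was primed with oligo(dT) from little input and amplified, which favours 3' sequence and leaves PCR copies in the counts. The sources used here do not say whether counting used strand. Each value was a whole multiple of the value of 1 read (tolerance 0.001 reads), which gave back reads and depth. Of 25239 rows, 2 held dates in place of symbols and were left out.

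Values were taken as log2(normalized count + 1), which understates changes of low genes, and 14022 genes whose mean over 8 libraries reached 10 were tested with limma 3.58.1 in R 4.3.3 (trend, two-sided, Benjamini-Hochberg over all genes). All adjusted p-values are from it unless another tool is named. A group of libraries does not overlap another when its lowest value is above the other's highest. Alternatives were pseudocounts of 0.5 and 5, no filter, a filter at 50, TMM scaling, quantile normalization, edgeR 4.0.16 and DESeq2 1.42.0 on recovered reads, the library number as a block, and leaving out libraries. Libraries of 1 group differed by more than sampling noise. Chi-square over its degrees of freedom was 13.4 to 37.2 for pairs of PBS libraries and 51.2 to 192.4 for pairs of ketones libraries. The limma fit takes the same variance for both groups. Levels per kb use exon lengths of GENCODE for the same build, and coordinates come from there. Promoters are RefSeq entries on GRCm38.p6.

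The 41 genes and the other lists were chosen with earlier results of these data known. All 41 are described, in full where they passed, where groups did not overlap, or where they form a fast and slow pair. Of each list of other muscle genes, up to 4 genes that passed are named in each direction, those with the smallest p. The marker lists are given as counts and sums, with single markers named in addition.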

Additional observations from a re-analysis of the deposited data

Results flagged for a closer look

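Each gene was examined on the log2 scale in each group of 4 libraries for 1 library far from the other 3, as the gap to the nearest library divided by the range of the group against Dixon's 95% limit. Chance flags about 1 in 20 groups, and 14 of 82 groups (17.1%) passed the limit. In 7 of the 14, ketones library 1 was the highest. These were Myh1 (0.965), Myoz1 (0.956), Acta1 (0.91), Mylpf (0.904), Tnnc2 (0.876), Tnnt3 (0.86) and Ckm (0.849). Among ketones libraries, library 2 was lowest for Tnnc1 (0.862). Among PBS libraries, library 2 was highest for Myl3 (1.0), on 5 reads with the other libraries at 0, and lowest for Actn3 (0.854) and Tnnt1 (0.838). PBS library 3 was lowest for Cacna1s (0.957) and Neb (0.862), and PBS library 1 was lowest for Tcap (0.84). The genes share their libraries, so the 7 values of ketones library 1 are not independent of each other.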

How the results depend on the processing

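Only alternative fits that gave a gene an adjusted p are counted here. The 20 genes called kept their direction and their call in 332 of 352 such fits. The other 20 lost the call in 5 genes, Mylpf, Mybpc2, Ldb3, Myom1 and Pgam2. Besides single libraries left out, quantile normalization removed the calls of Mybpc2 (adjusted p = 0.0687), Ldb3 (0.0904) and Pgam2 (0.0598). Testing with no filter removed those of Mybpc2 (0.056) and Ldb3 (0.0628), and leaving out ketones libraries 1 and 2 that of Myom1 (0.0986). The 352 leave out the DESeq2 fits of Mylpf, Acta1, Tnnt3, Tnni2, Tnnc2, Myoz1 and Ckm, which gave no adjusted p and so no call. Only 39 of the 14022 genes tested had no adjusted p in DESeq2, and 8 of these are members. The share of calls kept thus does not cover DESeq2 for those 7 called genes. The 18 genes not called kept their side in 281 of 311 such fits, passed in 16 and changed sign in 14. Leaving out 1 library gave 12 to 18 genes higher, 3 to 4 lower, 7 to 11 fast genes higher, 1 to 2 fast genes lower, 0 to 1 slow genes higher, and 2356 to 4070 of all genes changed, with 2356 without PBS library 1 and 3600 with all libraries. Without ketones libraries 1 and 2 there were 5 lower, 2 of them fast, with 4682 of all genes changed in either direction. Sign changes are listed as log2 changes. Myh1 was -0.064 after quantile normalization, -0.45 without ketones libraries 1 and 2, and -0.47 to 0.49 leaving out 1 library. Tnni1 was -0.26 after quantile normalization, -0.034 with edgeR, -0.036 with DESeq2, -0.22 without ketones libraries 1 and 2, and -0.19 to 0.84 leaving out 1 library. Without ketones libraries 1 and 2, Tpm1 was -0.058, Ttn -0.059 and Eno3 -0.31. Leaving out 1 library gave -1.40 to 0.20 for Neb and -0.19 to 0.66 for Eno3. The causes were not tested. With edgeR 18 members were higher and 3 lower, and with DESeq2 15 and 3, with 1 slow gene higher (Myl3) and no adjusted p for 8 members, among them Acta1, Ckm and Tnnt3, which were given NA. Same-numbered libraries correlated by -0.061 to 0.106, against -0.105 to 0.0969 for libraries of other numbers. No pairing by number was seen, though correlations this low cannot exclude it, since libraries of 1 group differed by more than sampling noise. With the library number as a block 5 members were lower, 2 of them fast, with 3595 of all genes changed in either direction. Read depth limits the low genes, since 1 read was worth up to 1.39 normalized counts. Oligo(dT) priming limits levels per kb of long genes such as Ttn and Neb, and reads shared between myosin heavy chains were not resolved.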
